A study of Mus musculus with 6 samples.

Results

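The genes described here are 9 long noncoding RNAs, taken as the rows of the deposited count table that carry the symbols Malat1, Neat1, Gas5, Zfas1, Snhg1, Snhg3, Snhg5, Snhg12 and Kcnq1ot1. All 9 were present among the 48587 genes of the table, and all 9 were among the 13166 genes that passed the abundance filter. Malat1, Neat1 and Kcnq1ot1 are transcripts that stay in the nucleus. The other members carry small nucleolar RNAs (snoRNAs) in their introns and are termed hosts below. They were measured in 4T1 cells, a mouse mammary carcinoma line grown in DMEM/F12 with 10% FBS. METTL7A1 cells carry a full-length Mettl7a1 cDNA in the pBICEP-CMV-2 vector, driven by the CMV promoter, and were kept under G418 selection. Mock cells carry the empty vector, and 3 libraries of total RNA depleted of ribosomal RNA were made from each group. METTL7A1 is a putative methyltransferase, and the comparison asks how its stable expression changes the transcriptome. Whether each line is a pool of transfectants or 1 clone is not given in the sources used here, so the effect of the transgene and a difference between 2 cell lines cannot be told apart.

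Malat1 gathers in nuclear speckles, bodies rich in splicing factors, and its stability depends on a triple helix at its 3′ end in place of a poly(A) tail. Neat1 is transcribed from the gene next to it and builds the paraspeckle, a nuclear body that assembles around the long Neat1 isoform. The snoRNA hosts are spliced like mRNAs. Their introns are trimmed to snoRNAs that guide modification of ribosomal RNA, while their spliced exons are poorly coding and are often degraded during translation by nonsense-mediated decay. Kcnq1ot1 is an antisense transcript of the Kcnq1 gene that silences an imprinted cluster on the paternal chromosome.

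Library totals ranged from 18386780 to 28459338 counts. Mettl7a1 itself was measured at 342, 385 and 422 cpm (counts put on one library size, with TMM factors) in METTL7A1 replicates 1 to 3 and at 1.64, 1.24 and 1.17 cpm in mock replicates 1 to 3, as the labels say. All 6 markers of 4T1 cells were expressed. Krt8, Krt18, Epcam and Cdh1 did not pass the test, whereas the basal keratin Krt14 (log2 -1.94, SE 0.09, adjusted p = 7.5e-08, edgeR quasi-likelihood test) and the mesenchymal marker Vim (log2 -1.16, SE 0.11, adjusted p = 1.2e-05) were lower in METTL7A1 cells. By contrast, of 6 markers of leukocytes, endothelium and fibroblasts 5 reached at most 22 counts in any library. The exception was the macrophage marker Cd68, at 12.8 ± 1.3 cpm in METTL7A1 and 5.43 ± 0.76 cpm in mock cells (mean ± SD, n = 3). Cd68 was called higher in METTL7A1 cells (log2 1.23, SE 0.14, adjusted p = 5.0e-05, edgeR quasi-likelihood test). Libraries of a group differed in a remnant of ribosomal RNA, AY036118, which took 0.502%, 2.57% and 4.53% of counts in METTL7A1 replicates 1 to 3 and 13.1%, 5.02% and 0.966% in mock replicates 1 to 3. METTL7A1 replicate 1 and mock replicate 3, the libraries of each group with the least AY036118, also stood apart in several long noncoding RNAs below. The part of AY036118 in the ratios and levels per kb was not tested. Fold changes and counts of calls were also fitted with its level, centred within each group, as a covariate. That fit does not adjust for the difference in AY036118 between the groups.

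Malat1 and Neat1 were higher in METTL7A1 cells, Snhg5 and Snhg12 were lower, and the other 5 members did not pass the test. Calls rest on an adjusted p under 0.05 in edgeR's quasi-likelihood test, with Benjamini-Hochberg correction across the 13166 genes tested. Of these genes 21.1% were called higher and 21.0% called lower, so 2 members of 9 in each direction is close to the background. Of the 9 members 6 had an unadjusted p under 0.05. The share of all genes at that level was not counted, so this is not read as an excess. None reached the thresholds of the study (adjusted p under 0.01 and a log2 fold change over 1.5 in size) with edgeR, DESeq2 or limma's voom, whereas 2.48% of all genes did with edgeR. The 3 libraries of a group did not overlap with those of the other group for 5 of the 9, beside 51.6% of all genes tested. The median log2 fold change of all genes was -0.03.

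**Figure D1:**
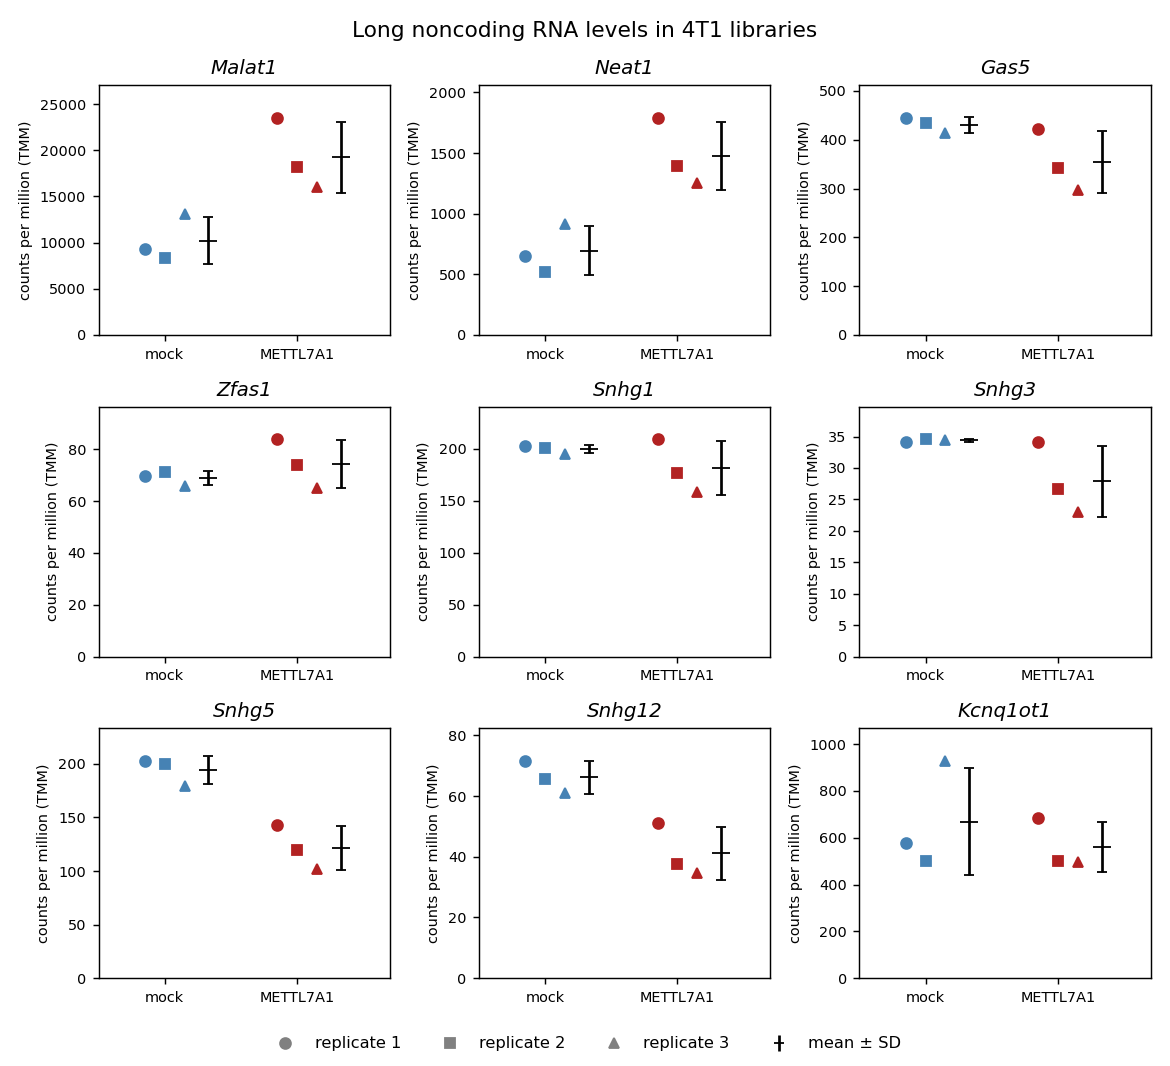
Level of each long noncoding RNA in cpm (TMM scaled, linear axis from 0) in the 3 mock and 3 METTL7A1 libraries. Points are libraries, shaped by replicate number, and black bars are the mean ± SD of a group. Malat1 and Neat1 sit higher in every METTL7A1 library than in any mock library, and Snhg5 and Snhg12 sit lower.

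Malat1 was the most abundant member by far. It was measured at 23541, 18146 and 16040 cpm in METTL7A1 replicates 1 to 3 and at 9260, 8286 and 13121 cpm in mock replicates 1 to 3. Every METTL7A1 library was above every mock library, with METTL7A1 replicate 1 and mock replicate 3 the highest of their groups. The gene took 1.62% to 2.38% of all counts in METTL7A1 and 0.80% to 1.42% in mock libraries. The change was 1.88-fold (log2 0.91, SE 0.21, 95% interval 0.45 to 1.38), with an adjusted p of 0.0053 in the edgeR quasi-likelihood test. Malat1 is a single exon of 6983 bases on chromosome 19 of mm10, chr19:5795690-5802672, minus strand.

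Neat1 lies 22036 bases away from Malat1 on the same strand, as a single exon of 20771 bases at chr19:5824708-5845478. Its level was 1792, 1392 and 1251 cpm in METTL7A1 replicates 1 to 3. In mock replicates 1 to 3 it was 652, 518 and 916 cpm. The groups did not overlap, and the same libraries as for Malat1 were highest. The rise was 2.13-fold (log2 1.09, SE 0.19, 95% interval 0.67 to 1.51), with an adjusted p of 0.0010 (edgeR quasi-likelihood test). The deposited table counts both the short and the long Neat1 isoform in one row, so the isoforms were not told apart.

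Malat1 and the long Neat1 isoform share a 3′ end that is cut rather than polyadenylated, with U-rich stretches that pair with an A-rich tract. The last bases of this element are printed because they set these transcripts apart from the spliced hosts. The sequences below are from the GENCODE M21 transcripts Malat1-201 and Neat1-201, 5′ to 3′, with the shared A-rich end (aaagcaaaa) in capitals.
Malat1, chr19:5795982-5796081, minus strand: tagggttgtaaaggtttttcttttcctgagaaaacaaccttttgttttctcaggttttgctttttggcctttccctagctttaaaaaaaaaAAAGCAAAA
Neat1, chr19:5824708-5824807, minus strand: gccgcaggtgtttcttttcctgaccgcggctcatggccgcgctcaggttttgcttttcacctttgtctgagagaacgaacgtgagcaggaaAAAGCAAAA
The motif occurred 1 time in each transcript. It closes the annotated Neat1 transcript, and 292 bases of annotated sequence follow it in Malat1.

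The genes around Malat1 and Neat1 were compared to see whether the whole neighbourhood rose. Within 100 kb of the pair, 13 further genes were tested that overlap neither of them. Their median log2 fold change was -0.04, with 2 called higher and 0 called lower (edgeR quasi-likelihood test, with 0 lower also at an unadjusted p under 0.05 and by DESeq2 and voom). The 2 were Ltbp3, which encodes a TGF-beta binding protein (log2 0.42, SE 0.08, adjusted p = 0.0016), and Slc25a45, a mitochondrial carrier (log2 0.56, SE 0.13, adjusted p = 0.0050). Frmd8, the gene next to Neat1 on the far side from Malat1, was at 0.17 (SE 0.08) and did not pass the test. These genes were chosen after earlier values had been seen. Of the antisense genes that lie wholly within the Malat1 exon, Gm20417 rose by 0.57 (SE 0.19) and Gm37376 by 0.71 (SE 0.17) on the log2 scale, with adjusted p of 0.030 and 0.0061. The call of Gm20417 was lost without METTL7A1 replicate 1, METTL7A1 replicate 2 or mock replicate 2, at an adjusted p of at most 0.096 and a log2 fold change down to 0.34. They held 731 to 2511 counts a library, whereas the 4 same-strand genes inside Malat1 and Neat1 held 0 counts in each. How strand was set in counting is not given in the sources used here, so reads of the antisense genes and of Malat1 may not be separate.

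**Figure D2:**
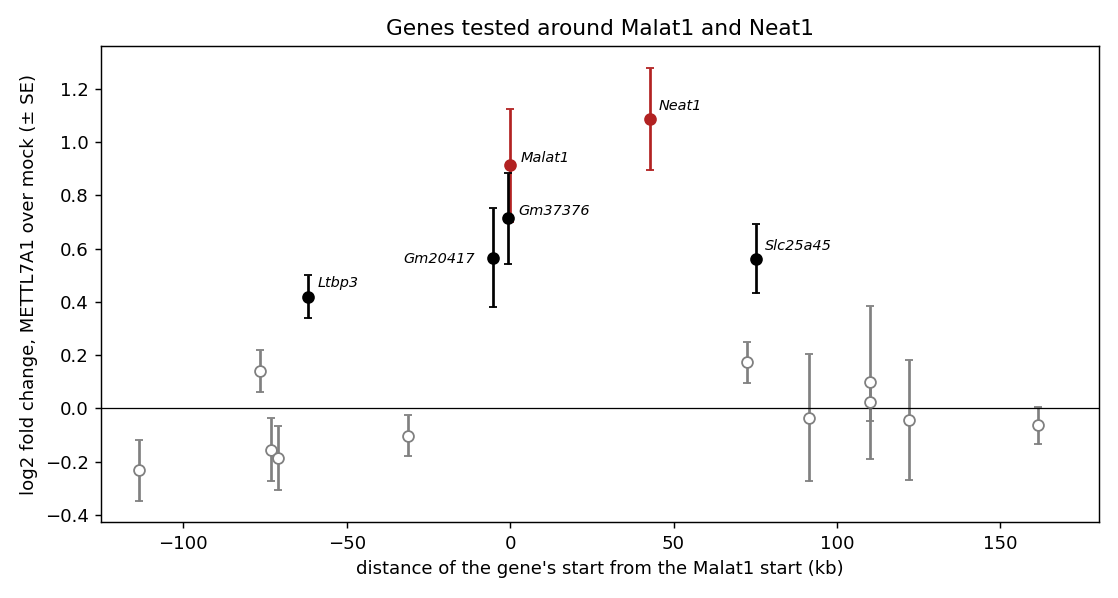
Log2 fold change of METTL7A1 over mock (± SE) of the 17 genes tested within 100 kb of Malat1 and Neat1, against the distance of each gene's start from the Malat1 start in kb. Filled, named points passed an adjusted p under 0.05, and Malat1 and Neat1 are in red. The pair at 0.91 and 1.09 and the antisense gene Gm37376 at 0.71 stand above neighbours that lie between -0.23 and 0.56. The antisense gene Gm20417, at 0.57, is level with the highest neighbour.

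Kcnq1ot1, the third nuclear member, did not pass the test. It was at 684, 502 and 494 cpm in METTL7A1 replicates 1 to 3 and at 577, 499 and 929 cpm in mock replicates 1 to 3. The groups overlapped, and mock replicate 3 alone was far above the other libraries. The log2 fold change was -0.26 (SE 0.20, 95% interval -0.70 to 0.19), with an adjusted p of 0.34 (edgeR quasi-likelihood test). Without mock replicate 3 the mock mean fell from 668 to 538 cpm, against 560 cpm in METTL7A1 cells, and the log2 fold change turned to 0.06 (adjusted p = 0.72, edgeR quasi-likelihood test). Kcnq1ot1 is a single unspliced exon of 84395 bases at chr7:143212155-143296549, minus strand. Kcnq1, the gene it is antisense to, held 2 to 13 counts in a library and was not tested.

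Ratios within a library do not depend on how libraries are scaled. They were chosen after values had been seen and carry no test. Per kb of exon, Malat1 was 416, 437 and 392 times as abundant as Kcnq1ot1 in METTL7A1 replicates 1 to 3, and 194, 201 and 171 times in mock replicates 1 to 3. The Malat1 to Kcnq1ot1 ratio was thus 2.21-fold higher in METTL7A1 cells and varied little within a group. Both transcripts peaked in the same 2 libraries. Neat1 was 10.6, 11.3 and 10.3 times as abundant as Kcnq1ot1 per kb in METTL7A1 replicates 1 to 3, and 4.59, 4.22 and 4.01 times in mock replicates 1 to 3. Neat1 per kb amounted to 0.0256, 0.0258 and 0.0262 of Malat1 in METTL7A1 replicates 1 to 3, and to 0.0237, 0.0210 and 0.0235 in mock replicates 1 to 3. Neat1 and Malat1 kept nearly 1 proportion, 1.14-fold higher in METTL7A1 cells.

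Among the 6 hosts, Snhg5 and Snhg12 were called lower, and Gas5, Zfas1, Snhg1 and Snhg3 did not pass the test. In bulk RNA, fewer cells that express a gene and less RNA per cell cannot be told apart.

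Snhg5, host of the U50 snoRNAs, was at 143, 119 and 102 cpm in METTL7A1 replicates 1 to 3 and at 203, 200 and 179 cpm in mock replicates 1 to 3. All METTL7A1 libraries were below all mock libraries, and METTL7A1 replicate 1 was the highest of its group. The level was 1.60-fold lower (log2 -0.68, SE 0.11, 95% interval -0.92 to -0.43), with an adjusted p of 6.0e-04 (edgeR quasi-likelihood test). The gene lies at chr9:88521050-88522929, minus strand, with 1045 exonic bases.

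Snhg12, host of 3 H/ACA snoRNAs and of Snord99, was at 51.1, 37.6 and 34.8 cpm in METTL7A1 replicates 1 to 3. In mock replicates 1 to 3 it was at 71.6, 65.7 and 61.1 cpm. The groups did not overlap. The level was 1.61-fold lower (log2 -0.69, SE 0.13, 95% interval -0.96 to -0.41), with an adjusted p of 0.0013 (edgeR quasi-likelihood test). The gene lies at chr4:132308678-132311024, plus strand, with 1363 exonic bases.

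Gas5, named for its accumulation in growth-arrested cells and host of many box C/D snoRNAs, was the most abundant host. It was at 423, 342 and 297 cpm in METTL7A1 replicates 1 to 3 and at 446, 434 and 413 cpm in mock replicates 1 to 3. METTL7A1 replicate 1 fell within the mock range and the other METTL7A1 libraries below it. The log2 fold change was -0.28 (SE 0.11, 95% interval -0.54 to -0.03), and the adjusted p of 0.066 (edgeR quasi-likelihood test) missed the threshold. Without METTL7A1 replicate 1 it was -0.42, with an adjusted p of 0.0021 in the same test, and without mock replicate 3 it was -0.31 with an adjusted p of 0.049. Without METTL7A1 replicate 3 it was -0.17 (adjusted p = 0.25) and without mock replicate 1 -0.25 (adjusted p = 0.20). Gas5 lies at chr1:161034607-161038539, plus strand, with 851 exonic bases.

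Snhg3 was at 34.1, 26.6 and 23.0 cpm in METTL7A1 replicates 1 to 3 and at 34.2, 34.6 and 34.4 cpm in mock replicates 1 to 3. The mock libraries were almost equal, METTL7A1 replicate 1 lay just below them and the others well below. The log2 fold change was -0.31 (SE 0.12, 95% interval -0.57 to -0.04), with an adjusted p of 0.060 (edgeR quasi-likelihood test). Without METTL7A1 replicate 1 it was -0.46 (adjusted p = 0.0018, edgeR quasi-likelihood test), and without METTL7A1 replicate 3 it was -0.18 (adjusted p = 0.22). The table counts Snhg3 over 581 exonic bases at chr4:132351934-132352933, minus strand, 40910 bases from Snhg12. The RefSeq start of Snhg3, at base 132353686, lies outside this model. Gm17300, on the opposite strand, shares 497 of the 581 bases and was lower in METTL7A1 cells, at 19.3, 21.5 and 17.2 cpm in replicates 1 to 3 against 77.4, 36.6 and 27.9 cpm in mock replicates 1 to 3 (log2 -1.28, SE 0.29, adjusted p = 0.0052, edgeR quasi-likelihood test). Gm17300 was highest in mock replicate 1, the library with most AY036118.

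Snhg1, host of a row of box C/D snoRNAs, was at 209, 176 and 159 cpm in METTL7A1 replicates 1 to 3 and at 203, 200 and 195 cpm in mock replicates 1 to 3. METTL7A1 replicate 1 was above all mock libraries and the others below them. The log2 fold change was -0.14 (SE 0.10, 95% interval -0.35 to 0.07), with an adjusted p of 0.27 (edgeR quasi-likelihood test). It was -0.24 without METTL7A1 replicate 1, with an adjusted p of 0.021, and -0.05 without METTL7A1 replicate 3, with an adjusted p of 0.75. Snhg1 lies at chr19:8723475-8726443, plus strand, with 865 exonic bases.

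Zfas1, transcribed antisense to the 5′ end of Znfx1, was at 83.8, 73.8 and 65.2 cpm in METTL7A1 replicates 1 to 3 and at 69.8, 71.1 and 66.0 cpm in mock replicates 1 to 3. The mock libraries lay within the METTL7A1 range. The log2 fold change was 0.11 (SE 0.09, 95% interval -0.09 to 0.30), with an adjusted p of 0.37 (edgeR quasi-likelihood test). The genes around Zfas1 had a median log2 fold change of 0.20, and relative to them Zfas1 was at -0.09 (adjusted p = 0.47), also short of the threshold. Znfx1, which shares 82 exonic bases with it on the other strand, had a log2 fold change of 0.15 (SE 0.08, adjusted p = 0.14). Zfas1 lies at chr2:167062934-167065862, plus strand, with 738 exonic bases.

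**Figure D3:**
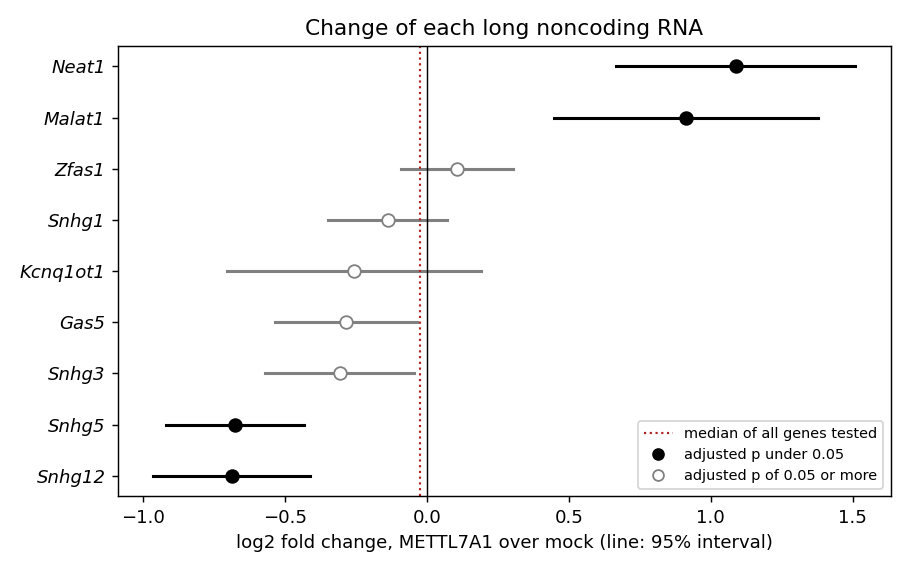
Log2 fold change of METTL7A1 over mock for the 9 long noncoding RNAs, with 95% intervals from the edgeR quasi-likelihood fit. Filled black points passed an adjusted p under 0.05, and the dotted line is the median of all genes tested, -0.03. The values run from -0.69 for Snhg12 to 1.09 for Neat1.

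Relative to Gas5, the hosts moved apart. Per kb of exon, Snhg5 amounted to 0.275, 0.285 and 0.280 of Gas5 in METTL7A1 replicates 1 to 3 and to 0.371, 0.375 and 0.353 in mock replicates 1 to 3. Snhg12 amounted to 0.0755, 0.0688 and 0.0731 of Gas5 in METTL7A1 replicates 1 to 3 and to 0.100, 0.0945 and 0.0923 in mock replicates 1 to 3. Both ratios were lower in every METTL7A1 library, by 0.39 and 0.40 on the log2 scale, so Snhg5 and Snhg12 differed from Gas5 to a like degree. Zfas1 amounted to 0.229, 0.249 and 0.253 of Gas5 in METTL7A1 replicates 1 to 3 and to 0.181, 0.189 and 0.184 in mock replicates 1 to 3, which is 1.32-fold higher. Snhg1 to Gas5 was 1.11-fold higher with groups that did not overlap, and Snhg3 to Gas5 overlapped between the groups, at 0.115 ± 0.003 in METTL7A1 and 0.117 ± 0.005 in mock cells (mean ± SD, n = 3). METTL7A1 replicate 1 had the highest level of every host in its group, but its Snhg5 and Snhg12 ratios were close to those of the other METTL7A1 libraries.

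**Figure D4:**
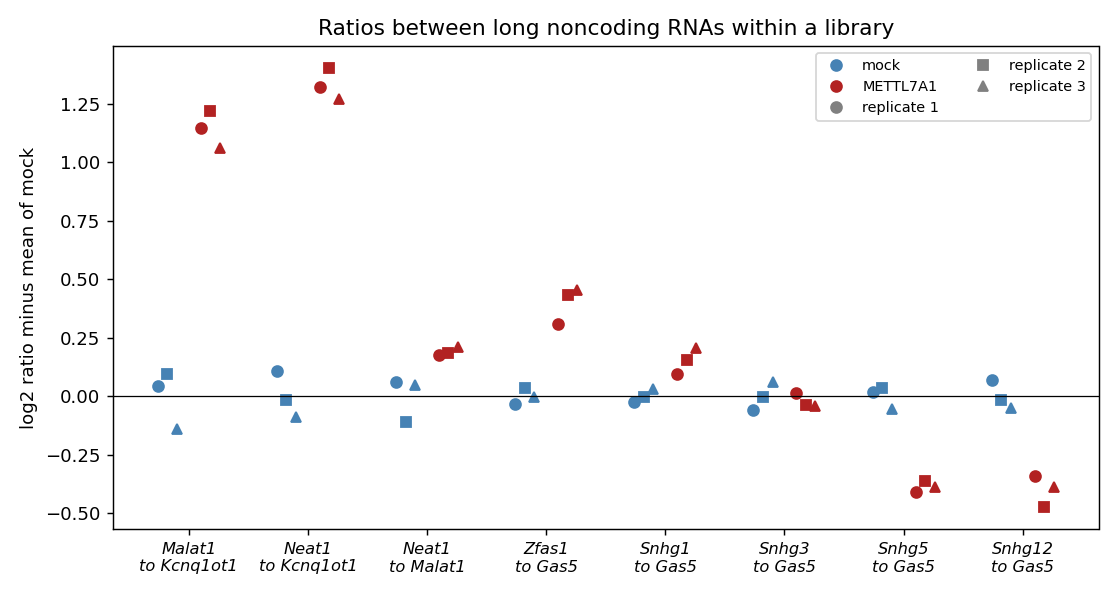
Log2 ratio of 2 long noncoding RNAs within each library, minus the mean of the mock libraries. Colours are groups and shapes are replicate numbers. Ratios of Malat1 and Neat1 to Kcnq1ot1 are over 1 higher in METTL7A1 cells, Snhg5 and Snhg12 to Gas5 are about 0.4 lower, and Snhg3 to Gas5 overlaps.

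Levels were ordered per kb of exon, in TMM-scaled cpm per kb. In mock cells the order was Malat1 (1464 ± 366, mean ± SD, n = 3), Gas5 (506 ± 19), Snhg1 (231 ± 4), Snhg5 (186 ± 12), Zfas1 (93.4 ± 3.6), Snhg3 (59.2 ± 0.4), Snhg12 (48.5 ± 3.9), Neat1 (33.5 ± 9.7) and Kcnq1ot1 (7.92 ± 2.71). No 2 neighbours in this order had overlapping libraries. In METTL7A1 cells Neat1 (71.2 ± 13.5, n = 3) stood above Snhg3 (48.1 ± 9.7) and Snhg12 (30.2 ± 6.4). Snhg5 (116 ± 20) and Zfas1 (101 ± 13) overlapped there and were not distinguished. The full length of the long isoform enters the Neat1 value, and introns are not part of the host models.

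The hosts were also compared by their hosted snoRNAs. By the planned rule (Snord or Snora symbols wholly within a host) there were 12 snoRNA genes, 8 of them tested, with 2 called lower. A wider rule was added after the data were seen. By it, GENCODE M21 lists 28 snoRNA genes on the same strand within or across the 6 hosts, of which 24 passed the abundance filter. None was called higher and 7 were called lower in the edgeR quasi-likelihood test, with 0 higher also at an unadjusted p under 0.05 and by DESeq2 and voom, and the median of their log2 fold changes was -0.34. The 195 snoRNA genes tested outside these hosts had the same median, -0.34, with 61 (31.3%) called lower, so nothing in these measures is particular to the hosted snoRNAs. A fragment of the host intron and a finished snoRNA give the same counts here and cannot be told apart.

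The snoRNA sequences are printed because they show what each host carries and which of them the counts can separate. They are the GENCODE M21 transcripts, 5′ to 3′. Capitals mark the C box (TGATGA) near the 5′ end and the D box (CTGA) near the 3′ end of box C/D snoRNAs, or the ACA of H/ACA snoRNAs. Snord78 and Snord22 do not hold the letters of this C box within their first 25 bases.
Snord47 (Gas5), chr1:161038082-161038158: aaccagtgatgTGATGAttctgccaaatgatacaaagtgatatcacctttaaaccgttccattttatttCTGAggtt
Snord78 (Gas5), chr1:161036984-161037049: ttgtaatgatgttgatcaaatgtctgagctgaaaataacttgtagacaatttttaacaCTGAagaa
Snord12 (Zfas1), chr2:167065276-167065365: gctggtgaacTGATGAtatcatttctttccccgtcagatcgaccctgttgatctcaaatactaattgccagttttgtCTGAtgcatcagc
Snord22 (Snhg1), chr19:8725866-8725991: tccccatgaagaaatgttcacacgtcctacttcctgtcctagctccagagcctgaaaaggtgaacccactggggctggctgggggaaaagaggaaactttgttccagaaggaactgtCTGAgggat
Snord50a (Snhg5), chr9:88521529-88521600, minus strand: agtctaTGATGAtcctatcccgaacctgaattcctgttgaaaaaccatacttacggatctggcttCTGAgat
Snord50b (Snhg5), chr9:88521797-88521868, minus strand: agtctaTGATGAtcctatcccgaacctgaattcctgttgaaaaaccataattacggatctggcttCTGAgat
Snora73a (Snhg3), chr4:132352775-132352979, minus strand: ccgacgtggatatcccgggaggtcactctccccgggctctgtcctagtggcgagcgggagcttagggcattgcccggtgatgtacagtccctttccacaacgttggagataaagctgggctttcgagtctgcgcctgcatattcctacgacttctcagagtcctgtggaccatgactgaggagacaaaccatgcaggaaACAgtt
Snora73b (Snhg3), chr4:132352322-132352526, minus strand: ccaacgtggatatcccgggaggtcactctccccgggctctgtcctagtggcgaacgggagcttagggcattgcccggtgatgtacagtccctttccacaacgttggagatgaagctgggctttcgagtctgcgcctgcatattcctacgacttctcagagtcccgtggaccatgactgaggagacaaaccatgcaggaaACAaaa
Snora16a (Snhg12), chr4:132309464-132309600: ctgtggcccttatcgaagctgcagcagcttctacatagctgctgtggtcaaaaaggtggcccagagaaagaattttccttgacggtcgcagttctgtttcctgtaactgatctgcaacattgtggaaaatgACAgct

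Snora73a and Snora73b, the U17 snoRNAs that act in 18S ribosomal RNA processing, showed the widest change of the hosted snoRNAs. Snora73b was at 141, 136 and 110 cpm in METTL7A1 replicates 1 to 3 and at 260, 237 and 166 cpm in mock replicates 1 to 3. The groups did not overlap, and mock replicate 3 was nearest to the METTL7A1 libraries. Its log2 fold change was -0.77 (SE 0.15), with an adjusted p of 0.0017 (edgeR quasi-likelihood test). Snora73a was at 5.87, 5.38 and 4.26 cpm in METTL7A1 replicates 1 to 3 and at 11.4, 8.71 and 7.37 cpm in mock replicates 1 to 3 (log2 -0.82, SE 0.18, adjusted p = 0.0042). The 2 sequences differ at 7 of 205 positions, counted from the 5′ end of Snora73a: G3A, G54A, A111G, T164C, G203A, T204A and T205A. Reads could therefore be split between them, and 159 bases of Snora73a also overlap the Snhg3 exons of the table. Within the mock group both were highest in the library with most AY036118 and lowest in that with least. Both stayed called without each library in turn, with an adjusted p of at most 0.013 for Snora73b and 0.026 for Snora73a.

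Snord50b of Snhg5 was at 3.93, 3.18 and 2.43 cpm in METTL7A1 replicates 1 to 3 and at 4.81, 4.91 and 4.95 cpm in mock replicates 1 to 3. It was lower in all METTL7A1 libraries, with a log2 fold change of -0.63 (SE 0.19) and an adjusted p of 0.019 (edgeR quasi-likelihood test), close to the -0.68 of its host. The call was lost without METTL7A1 replicate 2, METTL7A1 replicate 3 or mock replicate 1, with an adjusted p of at most 0.081. Snord50a, which differs from it by 1 base (C50A from Snord50a to Snord50b), stayed under the filter, at 0.054 to 0.305 cpm. Reads that do not cover this base cannot be assigned to either gene by sequence, so the 2 levels may not be separate.

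The 9 snoRNA genes of Gas5 had log2 fold changes from -0.55 to -0.19, and 4 of them were called lower. These were Gm22357 (-0.55, SE 0.16), Gm23212 (-0.44, SE 0.13), Mir5117, which GENCODE types as a snoRNA (-0.50, SE 0.16), and Gm25789 (-0.55, SE 0.18). All 4 calls were lost without METTL7A1 replicate 2 or mock replicate 1, those of Gm23212, Mir5117 and Gm25789 also without METTL7A1 replicate 3 and that of Gm25789 without mock replicate 2, with adjusted p of up to 0.15. The offset for chromosome position left only Gm22357 called (adjusted p = 0.046). The named genes Snord47, Snord78 and Snord80 had values of -0.32, -0.22 and -0.37 and did not pass the test. Summed over the 9 genes, the snoRNA level was 216, 164 and 139 cpm in METTL7A1 replicates 1 to 3 and 226, 222 and 215 cpm in mock replicates 1 to 3. As a ratio to the Gas5 exon count this was 0.511, 0.479 and 0.466 against 0.507, 0.510 and 0.520, with groups that overlapped. The same ratio for Zfas1 was 0.411, 0.370 and 0.399 against 0.461, 0.423 and 0.445, lower in every METTL7A1 library. For Snhg3 it was 4.32, 5.32 and 4.96 against 7.94, 7.10 and 5.04, with groups that overlapped. The groups also overlapped for Snhg1, Snhg5 and Snhg12. These ratios carry no test.

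Of the 8 snoRNA genes of Snhg1 and the 3 of Zfas1, none passed the edgeR test. At an unadjusted p under 0.05 there were 2 and 0, DESeq2 called 1 and 0, and voom called 2 and 0. Their log2 fold changes ranged from -0.37 to 0.02 within Snhg1 and from -0.20 to 0.06 within Zfas1. Snord22 was at 20.7, 17.2 and 12.7 cpm in METTL7A1 replicates 1 to 3 and at 15.9, 18.0 and 17.7 cpm in mock replicates 1 to 3. Snord12 was at 10.8, 7.14 and 6.97 cpm against 8.75, 10.4 and 9.30 cpm. In both the groups overlapped. Of the 4 snoRNA genes in Snhg12 only Snora16a was tested, at 8.95, 6.06 and 6.29 cpm in METTL7A1 replicates 1 to 3 and 12.4, 7.34 and 8.82 cpm in mock replicates 1 to 3 (log2 -0.43, SE 0.20, adjusted p = 0.12, edgeR quasi-likelihood test). Snora44, Snora61 and Snord99 held 0 counts in every library. Snora44 and Snora61 lie wholly within Snhg12 exons of the table and Snord99 for 69 of its 74 bases, so their reads may have gone to Snhg12 or to no gene.

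**Figure D5:**
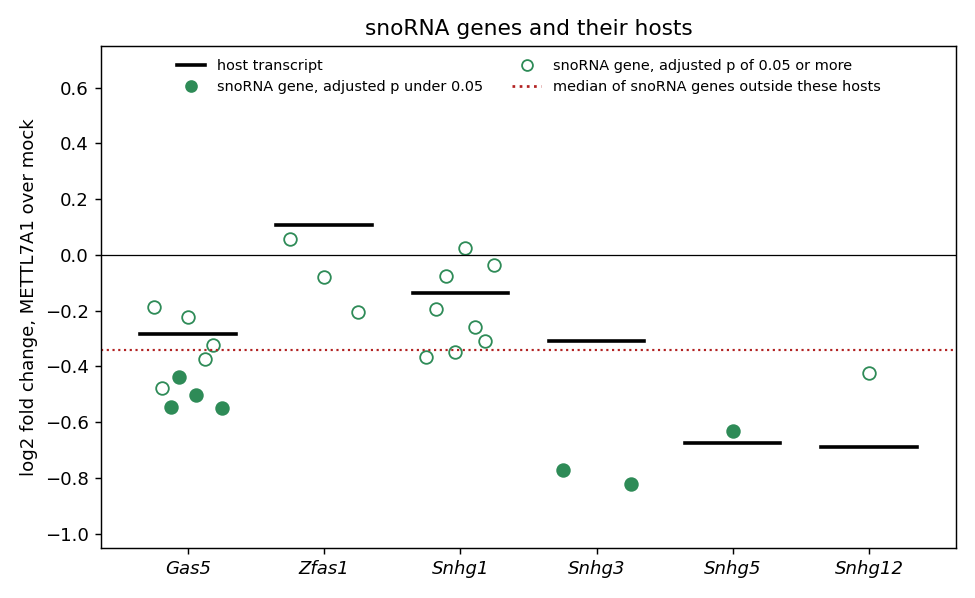
Log2 fold change of METTL7A1 over mock for the 24 snoRNA genes tested, in order of position under their host (bars give the host transcript). Filled points passed an adjusted p under 0.05, and the dotted line is the median of the snoRNA genes outside these hosts, -0.34. The Snora73 genes lie below their host Snhg3, and the Gas5 genes spread around and below Gas5.

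Hosts of snoRNAs typically start with a C followed by a run of pyrimidines (a 5′TOP, as in mRNAs of ribosomal proteins). RefSeq promoters of GRCm38.p6, the build of the files, were matched for 8 of the 9 members, with 9 start sites in all. A run of at least 6 pyrimidines that begins with C was searched from 20 bases before to 40 bases after each start. It was present at 3 of the 9 start sites and at 39.5% of the 32851 promoters of mouse genes. Windows of the 2 called hosts, of Gas5 and of Snhg1 are printed, 5′ to 3′, with such a run in capitals.
Snhg5, chr9:88522858-88522917, minus strand: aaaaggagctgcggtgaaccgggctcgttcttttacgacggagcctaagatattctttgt
Snhg12, chr4:132308658-132308717: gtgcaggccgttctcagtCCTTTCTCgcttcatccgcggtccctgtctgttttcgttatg
Gas5, the downstream start, chr1:161035146-161035205: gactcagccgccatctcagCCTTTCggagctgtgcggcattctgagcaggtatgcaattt
Snhg1, chr19:8723467-8723526: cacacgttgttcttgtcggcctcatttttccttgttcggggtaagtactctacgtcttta
The third run was that of Kcnq1ot1, which is not a snoRNA host, and it began 31 bases after the start. The upstream Gas5 start, at base 161034601, had no such run in its window. A run anywhere in the window was counted, so these counts cannot tell which transcripts begin with a 5′TOP. Over the whole promoter entries, from 250 bases before to 50 bases after a start, and on both strands, TATAAA was found at 3 of the 9 start sites (Snhg1, Snhg3 and Snhg5) and in 13.6% of all promoters, the E-box CACGTG at 0 of 9 and in 7.15%, and the ATF4-type element TTGCATCA at 0 of 9 and in 0.895%. Snhg5 and Snhg12, the 2 hosts called lower, did not share any of these letters.

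Further snoRNA host genes were counted to set the 6 hosts beside their class. Of 15 listed, 13 were in the table and 10 were tested, with 0 called higher (0 also at an unadjusted p under 0.05 and by DESeq2 and voom) and 4 called lower and a median log2 fold change of -0.32. All 10 had negative values. The lower ones were Dancr (-0.82, SE 0.10, adjusted p = 1.1e-04, edgeR quasi-likelihood test), Snhg8 (-0.54, SE 0.09, adjusted p = 5.2e-04), Snhg15 (-0.39, SE 0.10, adjusted p = 0.0081) and Snhg4 (-0.37, SE 0.12, adjusted p = 0.030). The call of Snhg4 was lost without METTL7A1 replicate 2, METTL7A1 replicate 3 or mock replicate 1 (adjusted p of up to 0.15), and it was at -0.69 with the offset for chromosome position. The list taken as other nuclear long noncoding RNAs held 13 symbols, with Norad under its current and its older symbol. Of these 7 were tested, with a median log2 fold change of -0.02. None was called in the edgeR quasi-likelihood test (2 at an unadjusted p under 0.05, 0 by DESeq2, 1 by voom). Ftx (-0.40, SE 0.16, adjusted p = 0.064), an activator of Xist, and Jpx (-0.49, SE 0.22, adjusted p = 0.099) came nearest. Tug1, at 198 ± 7 cpm in METTL7A1 and 189 ± 6 cpm in mock cells (n = 3), and Firre, at 63.7 ± 13.6 and 64.3 ± 6.3 cpm, lay near 0 on the log2 scale (0.07 and -0.02).

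The proteins that bind these RNAs were described by fixed lists in the same edgeR test. Of 13 paraspeckle proteins, 4 were called higher and 4 lower, with a median log2 fold change of -0.04. With an offset for the median change of each gene's 40 neighbours on its chromosome, none of the 13 was called. Dazap1 (0.34), Cpsf6 (0.40) and Hnrnph3 (0.47) were among the higher and Hnrnpk (-0.38), which favours the long Neat1 isoform, among the lower. Their neighbours had medians of 0.35, 0.35, 0.52 and -0.49. Nono and Sfpq, the core proteins that bind Neat1, were at -0.14 (SE 0.08) and -0.07 (SE 0.08) and did not pass the test. Of 10 nuclear speckle proteins, Srrm2, a scaffold of the speckle, was higher (0.34, SE 0.11, adjusted p = 0.023), and U2af2 (-0.42, SE 0.08, adjusted p = 0.0014) and Srsf7 (-0.23, SE 0.07, adjusted p = 0.028) were lower. Of these, only U2af2 was called without each library in turn and with the offset for chromosome position, there at -0.25 (adjusted p = 0.032). Without METTL7A1 replicate 2, mock replicate 1 or mock replicate 2 both other calls were lost, and Srrm2 also without METTL7A1 replicate 1 and Srsf7 without METTL7A1 replicate 3, with an adjusted p of up to 0.093 and 0.12.

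Of 10 nonsense-mediated decay factors, 1 was called higher and 4 lower, and their median was -0.16 on the log2 scale. The lower ones were Upf1, the central helicase (-0.35, SE 0.07, adjusted p = 0.0016, edgeR quasi-likelihood test), Smg5 (-0.34), Smg8 (-0.41) and Smg9 (-0.43), and the higher one was Upf2 (0.23, SE 0.08, adjusted p = 0.039). Smg9 was not called without mock replicate 1 (adjusted p = 0.052), nor Upf2 without METTL7A1 replicate 1 or 2 or mock replicate 1 or 2 (adjusted p of up to 0.13) or with a replicate block (0.075). The count of decay factors called went from 5 to 3 with the offset for chromosome position, to 3 without mock replicate 1 and to 8 without mock replicate 3. With the offset Upf1 (-0.18, adjusted p = 0.061), Smg9 (-0.30, adjusted p = 0.056) and Upf2 (0.12, adjusted p = 0.29) were not called. Smg5 and Smg8 stayed called there, so these 3 include a factor not called in the main fit. Of the snoRNP core proteins 8 were tested. Dkc1, the pseudouridine synthase of H/ACA snoRNPs (-0.52, SE 0.07, adjusted p = 2.5e-04), and its partner Nhp2 (-0.38, SE 0.09, adjusted p = 0.0078) were lower. Nop10 (-0.04, SE 0.11, adjusted p = 0.81) and Gar1 (-0.01, SE 0.12, adjusted p = 0.96), also of H/ACA snoRNPs, did not pass the test. Nop58 (-0.18, SE 0.07, adjusted p = 0.081) and Fbl (-0.12, SE 0.10, adjusted p = 0.36), which serve box C/D snoRNAs, did not pass the test. Nor did Nop56 (0.04, SE 0.08, adjusted p = 0.70) and Nhp2l1 (0.02, SE 0.09, adjusted p = 0.90), also of box C/D snoRNPs, whose values were positive.

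Of the 10 genes of the Kcnq1ot1 imprinted cluster 5 were tested. Nap1l4 (-0.32, SE 0.07, adjusted p = 0.0036, edgeR quasi-likelihood test) and Osbpl5 (-0.25, SE 0.07, adjusted p = 0.013, and up to 0.066 without METTL7A1 replicate 3 or mock replicate 1) were lower, though neither was with the offset for chromosome position (-0.19 and -0.12, adjusted p = 0.062 and 0.23), whereas Phlda2 (-0.33, SE 0.15, adjusted p = 0.10), Tssc4 (-0.21, SE 0.12) and Cd81 (0.02, SE 0.13) did not pass the test. Cdkn1c, Slc22a18, Ascl2 and Tspan32 held at most 4 counts in a library, so a change was not detectable at this depth.

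Some members had like patterns over the 6 libraries. The Pearson correlation of log2 cpm was 0.996 between Malat1 and Neat1, 0.989 between Snhg5 and Snhg12 and 0.986 between Gas5 and Snhg3. Snhg1 was most like Gas5 among the members (0.973), while the best match of Zfas1 was Snhg1 at 0.529 and that of Kcnq1ot1 was Snhg3 at 0.543. AY036118 and the scaling of a library enter all genes of that library, and these values are descriptions over 6 libraries. The tested gene most like each member was Npr2 for Malat1 (0.999), Ccdc191 for Neat1 (0.999), Snora21 for Gas5 (0.997), Taf1 for Zfas1 (0.995), Hnrnpdl for Snhg1 (0.994), mt-Nd5 for Snhg3 (0.996), Sf3b3 for Snhg5 (0.998), B230208H11Rik for Snhg12 (0.997) and Gm37589 for Kcnq1ot1 (0.995), each picked as the highest of all genes tested.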

How the data were processed

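Total RNA of 3 METTL7A1 and 3 mock 4T1 cultures, labelled as biological triplicates, was sequenced as stranded, ribosome-depleted libraries. The authors aligned reads to mm10 and deposited unnormalized counts for each gene. The submitters' processing notes name bcl2fastq 2.20.0.422, STAR 2.5.3a, featureCounts and R 3.5.1. Strand and multimapping settings are not given in the sources used here. The annotated exon length per gene was used for values per kb.

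The whole table of counts entered edgeR 4.0.16 (R 4.3.3): at least 1 cpm in at least 3 libraries (13166 genes), TMM scaling, glmQLFit and glmQLFTest without covariate, and Benjamini-Hochberg adjustment over all genes. SE is the log2 fold change divided by the square root of F. P-values reflect the spread between these 3 libraries a group, which limits the precision of each value. The test was checked on simulated counts. Alternatives used DESeq2 1.42.0, limma 3.58.1, other scalings, filters and covariates, and each library left out.

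The members and lists were chosen with earlier results of these data known. All members were named. Of the other lists, counts and up to 4 genes with the smallest p were named. Others (Nono, Sfpq, Firre, Upf2, Nop10, Gar1, Nop56, Nhp2l1, Cd81, the imprinted genes under the filter and the Malat1 neighbours) were chosen after their values were seen.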

Additional observations from a re-analysis of the deposited data

How the results depend on the processing

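Malat1, Neat1, Snhg5 and Snhg12 were called with the same direction in all 16 alternatives, with log2 fold changes of 0.75 to 1.14, 0.91 to 1.34, -0.80 to -0.56 and -0.86 to -0.57. The number of members called was 4 to 6 under the other settings and 4 to 7 when 1 library was left out. Calls over all genes moved as well, from 5537 in the main fit to between 4125 and 6785 under the other settings. With 1 library left out they lay between 3761 and 5753. The number of members was 7 without METTL7A1 replicate 1, where Gas5, Snhg3 and Snhg1 were added and 5373 of 12898 genes tested were called. Gas5 was called in 6 and Snhg3 in 4 of the 16 alternatives. With AY036118 as a covariate, centred within groups, 6 members were called, Gas5 and Snhg3 included (adjusted p = 0.018 and 0.012, edgeR quasi-likelihood test). In that fit 6785 of the 13166 genes tested were called, so the added calls were not particular to the members. Directions turned in 3 cases, none of them called: Zfas1 at -0.094 with the offset for chromosome position, Kcnq1ot1 without mock replicate 3 (0.063, with a range of -0.431 to 0.063 over libraries left out), and the log2 ratio of Snhg3 to Gas5 without mock replicate 3 (0.010, with a range of -0.050 to 0.010). The causes were not tested.

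Replicate numbers did not pair the libraries: the correlations of deviations were -0.15, 0.20 and -0.37, and 1 of 6 libraries correlated best with its own number. With the replicate block 5 members were called, Gas5 added (adjusted p = 0.043, edgeR quasi-likelihood test), beside 4810 of the 13166 genes tested.

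Counts of called genes moved in several lists. The other nuclear long noncoding RNAs went from 0 to 2 without the filter, 2 with the AY036118 covariate and 1 with limma's voom. The offset for chromosome position gave 3 decay factors in place of 5, 0 paraspeckle proteins in place of 8, 1 speckle protein in place of 3 and 0 imprinted genes in place of 2, and no filter gave 1 imprinted gene. With 1 library left out the ranges were 3 to 7 other hosts, 0 to 2 nuclear long noncoding RNAs, 3 to 8 decay factors, 1 to 3 speckle proteins and 1 to 3 imprinted genes. Hosted snoRNAs called by the symbol rule (Snord or Snora symbols wholly within a host, 12 genes, 8 tested) numbered 2 against 7 by GENCODE type, 4 without the filter, 4 with the AY036118 covariate and 1 to 7 with 1 library left out, the highest without METTL7A1 replicate 1. With unscaled library totals the mock levels per kb of Snhg1 and Snhg3 were 226 and 58.0. The GENCODE rule, the means without mock replicate 3 and the ratios were chosen after seeing the data.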
